A study of Mus musculus with 36 samples.

Results

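MHC class I molecules are described here through 10 genes, namely B2m, H2-K1, H2-D1, H2-Q4, H2-Q6, H2-Q7, H2-T22, H2-T23, H2-M2 and H2-M3, out of 52636 genes in the deposited files. They were chosen by name, as the class I light chain and 9 class I heavy chains of the mouse H2 complex, and other class I genes are described further on. A class I molecule is a heavy chain held at the cell surface by beta-2 microglobulin, the product of B2m. The classical heavy chains, H2-K1 and H2-D1, are carried by most nucleated cells and show peptides from inside the cell to CD8 T cells, whereas the nonclassical heavy chains of the Q, T and M regions show a narrower range of ligands, often to natural killer cells or to unconventional T cells. Interferons and inflammatory cytokines are known to raise transcription of the family, together with the immunoproteasome and the TAP peptide transporter that supply the peptides.

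RNA from whole intestines of E18.5 mouse embryos and from mouse embryonic fibroblasts (MEFs) was sequenced to ask how loss of cFLIP, the caspase-8 regulator encoded by Cflar, alters cells that carry mutant caspase-8. One set of intestines covered the D387A form of caspase-8, which cannot be cleaved between its catalytic subunits, in Mlkl-/- controls, in Casp8 1xDA/1xDA embryos, in 1xDA/1xDA embryos that also carried Cflar-/- and Mlkl-/-, and in the last genotype with added Casp1-/-, with added Casp1-/- Ifnar1-/- or with added Casp1-/- Fadd-/-. Another set covered the catalytically inactive C362A form, in Mlkl-/- controls, in Casp8 C362A/C362A embryos with Mlkl-/-, and in this genotype with added Casp1-/- or with added Cflar-/-. The MEFs were Mlkl-/- or Casp8 1xDA/1xDA Cflar-/- Mlkl-/-, and each genotype had 3 biological replicates. All groups lacked Mlkl, the executioner of necroptosis, except the Casp8 1xDA/1xDA embryos, so that group differed from its controls in both Casp8 and Mlkl. The Mlkl-/- controls had intact Casp1, Ifnar1 and Fadd, and no controls that lacked only those genes were analysed here. The Cflar and Mlkl deletions of the D387A line came from 1 mosaic founder, and the C362A line had a separate Cflar deletion, so Casp8 allele and line cannot be told apart. MEFs were early-passage cultures from younger embryos without head and internal organs. Sample titles of the D387A set carry a separate number for each genotype except that Mlkl-/- and Cflar-deficient embryos share one, so for the other genotypes whatever that number marks cannot be told apart from genotype. Below, Cflar-deficient D387A embryos are those with Casp8 1xDA/1xDA Cflar-/- Mlkl-/-, and Casp1-, Ifnar1- or Fadd-deficient D387A embryos are those with the added deletions, Casp1 being absent from all 3 of these groups.

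Between 17943524 and 27721024 reads per library fell on genes in the D387A intestines, between 21757868 and 31052238 in the C362A intestines and between 20927014 and 32307629 in the MEFs. Casp1 had at most 0.212 CPM (counts scaled to the size of the library) in the Casp1-deficient intestines and 42.6 to 124 CPM in the other intestines, and Fadd had 0.659 to 1.01 CPM in the Fadd-deficient intestines and 25.5 to 50.5 CPM in the other intestines. Ifnar1 had 33.2 to 37.9 CPM in the Ifnar1-deficient embryos and 76.1 to 103 CPM in the other intestines, so reads remained on this gene. Epithelial markers summed to 3309 to 5539 RPKM (CPM divided by the gene width in kilobases) in all intestines and to 26.7 to 44.8 RPKM in the MEFs, in which Cdx2 was at 0, and fibroblast markers summed to 3480 to 3983 RPKM in the MEFs. The third Casp1-deficient D387A embryo stood apart, with 1649 RPKM of B2m against 548 and 655 in the other 2, and the member counts that rest on it are given with and without it. It was singled out after these levels were seen, so p-values of fits without it are descriptive. In bulk samples, fewer cells of a type and less RNA per cell cannot be told apart.

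The promoters of 4 members are shown because the groups described below turn on these genes: the light chain B2m, the abundant classical heavy chain H2-K1, the nonclassical H2-T22, and H2-M2, which was nearly silent in controls. Each stretch holds 250 bases before and 50 bases after the start site in RefSeq on build GRCm38.p6, is written 5′ to 3′ along the gene's strand, and has capitals at matches to 3 motifs on either strand. The stretches are chr2:122147437-122147736 on the plus strand for B2m, and chr17:34000298-34000597, chr17:36042693-36042992 and chr17:37483505-37483804 on the minus strand for H2-K1, H2-T22 and H2-M2. The motifs are a core of the interferon-stimulated response element (GAAANNGAAA, where N is any base), the consensus site of NF-kappaB and the Y box (CCAAT).
B2m: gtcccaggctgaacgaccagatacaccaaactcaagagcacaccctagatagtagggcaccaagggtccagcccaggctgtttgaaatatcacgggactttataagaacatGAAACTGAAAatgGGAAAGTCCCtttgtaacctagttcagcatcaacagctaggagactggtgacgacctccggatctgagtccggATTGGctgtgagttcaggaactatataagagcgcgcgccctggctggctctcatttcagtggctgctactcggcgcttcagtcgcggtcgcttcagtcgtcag
H2-K1: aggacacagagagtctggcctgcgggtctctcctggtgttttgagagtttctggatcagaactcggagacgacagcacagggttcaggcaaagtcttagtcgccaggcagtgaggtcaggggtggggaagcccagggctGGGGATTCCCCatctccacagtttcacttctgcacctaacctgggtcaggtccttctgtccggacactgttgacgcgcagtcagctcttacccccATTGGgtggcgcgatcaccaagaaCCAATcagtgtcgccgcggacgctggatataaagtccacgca
H2-T22: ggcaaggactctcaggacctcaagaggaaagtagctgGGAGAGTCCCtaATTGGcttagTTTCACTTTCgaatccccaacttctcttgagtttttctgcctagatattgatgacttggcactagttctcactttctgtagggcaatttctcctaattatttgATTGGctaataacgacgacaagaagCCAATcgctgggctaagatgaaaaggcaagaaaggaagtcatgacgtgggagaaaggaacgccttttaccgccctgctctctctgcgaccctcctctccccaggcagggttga
H2-M2: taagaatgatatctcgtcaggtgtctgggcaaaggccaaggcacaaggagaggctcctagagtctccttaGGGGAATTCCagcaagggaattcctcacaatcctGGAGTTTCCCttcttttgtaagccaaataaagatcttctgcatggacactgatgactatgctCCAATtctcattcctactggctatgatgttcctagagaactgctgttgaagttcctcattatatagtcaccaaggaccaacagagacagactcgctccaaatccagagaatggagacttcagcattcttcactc
All 10 members matched a promoter in the table. The interferon core, in exactly these letters, lay in 3 of the 10, those of B2m, H2-T22 and H2-T23, against 3.44% of all 32851 promoters of this length. Looser forms of the element were not searched, so a promoter without a match is not shown to lack one. The NF-kappaB consensus lay in 9 of the 10, all except that of H2-T23, against 8.46% of all promoters, and the Y box lay in 10 of the 10 against 37.4%. In B2m the interferon element began 139 bases before the start site and the NF-kappaB match 126 bases before it. In H2-M2 there were 2 NF-kappaB matches and no match to the interferon core, and in H2-K1 the 4 NF-kappaB matches overlapped at a single place on both strands. In H2-T22 the NF-kappaB match preceded the interferon element. A match describes letters and is not evidence of binding.

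Of the members, 9 lie together in the H2 complex on chromosome 17 and B2m lies on chromosome 2 (122147686 to 122153083, plus strand, GRCm38). All are annotated as protein coding. H2-K1 stands at 33996017 to 34000347 on the minus strand, apart from H2-D1, H2-Q4, H2-Q6 and H2-Q7, which follow each other from 35262730 to 35443773 on the plus strand. H2-T23 and H2-T22 lie on the minus strand from 36029773 to 36042747. H2-M3 lies from 37270220 to 37274484 on the plus strand, and H2-M2 from 37480851 to 37483552 on the minus strand. Heavy chain genes are close copies, so the share of each gene's transcript windows of 50 bases that also occur in a transcript of another gene was counted. That share was 0% for B2m, 0.576% for H2-M3, 1.62% for H2-M2, 9.63% for H2-K1, 12.8% for H2-D1 and 13.6% for H2-T23. It was 21.8% for H2-Q4, 26.4% for H2-Q7, 32.0% for H2-Q6 and 34.5% for H2-T22, whose main partner was H2-T10. The files hold uniquely aligned reads, so values of these last 4 genes are uncertain where reads could not be placed.

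In Mlkl-/- intestines of the D387A set, light chain RNA was the most abundant of the family and the classical heavy chains came next. The mean level of B2m was 571 ± 29 RPKM (SD, n = 3), that of H2-K1 was 327 ± 26 RPKM and that of H2-D1 was 161 ± 9.5 RPKM. The nonclassical H2-T23, the mouse Qa-1 chain that engages the CD94/NKG2A receptor, had 22.7 ± 4.0 RPKM, H2-Q4 had 12.98 ± 1.0 RPKM and H2-T22 had 9.35 ± 0.60 RPKM. H2-M3, which presents formylated peptides, had 2.22 ± 0.079 RPKM, and H2-Q6 and H2-Q7, the genes of the Qa-2 antigens, had 0.694 ± 0.27 and 0.675 ± 0.052 RPKM. H2-M2, a heavy chain with little known about its function, had 2, 1 and 2 reads in the 3 embryos, or 0.0545 ± 0.018 RPKM. Neighbours in this order did not overlap over the 3 embryos except H2-Q6 and H2-Q7. B2m ranked 63 among all genes by mean RPKM and H2-K1 ranked 147. The Mlkl-/- intestines of the C362A set gave 481 ± 112 RPKM of B2m, 313 ± 34 of H2-K1 and 153 ± 23 of H2-D1, with 3, 4 and 7 reads of H2-M2.

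**Figure D1:**
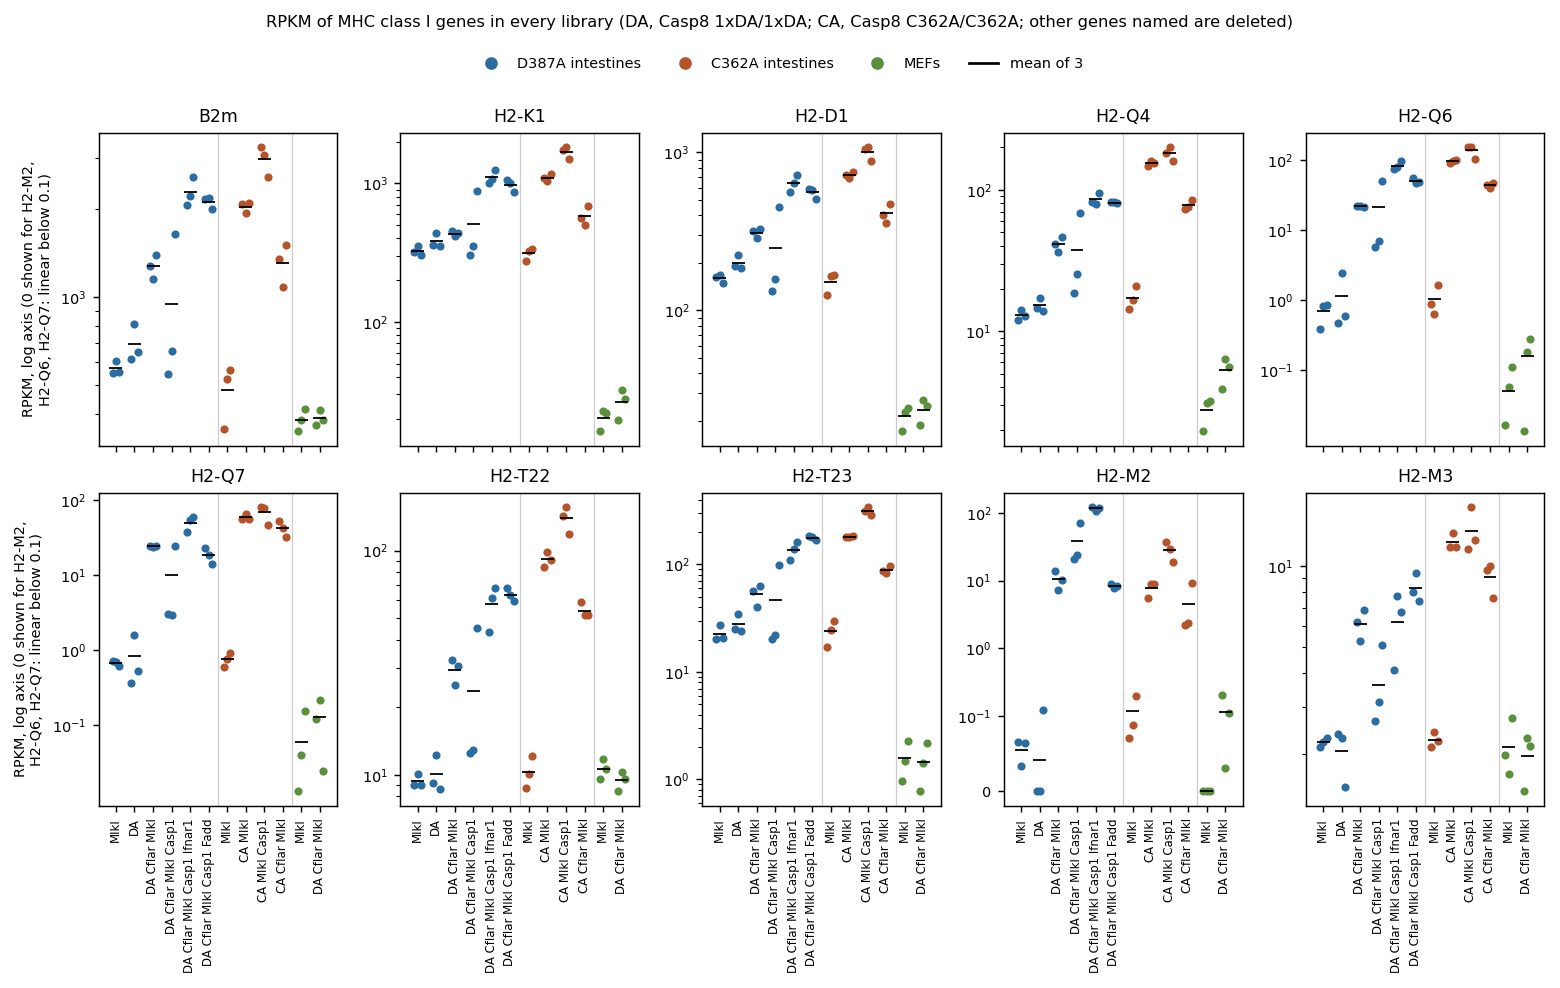
Level of each member in every library, in RPKM on a log axis (linear near 0 for H2-M2, H2-Q6 and H2-Q7), 1 point per library and a line at the mean of 3, for the D387A intestines, the C362A intestines and the MEFs. B2m runs from 348 RPKM in a MEF library to 3273 in an intestine, whereas H2-M2 runs from 0 to 123 RPKM.

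Genes were tested with edgeR's quasi-likelihood test, adjusted p-values are Benjamini-Hochberg values over all genes of a set, and a gene is said to rise or fall where its log2 fold change passed 1 or -1 with an adjusted p under 0.05. The comparison of Casp8 1xDA/1xDA with Mlkl-/- intestines asked what the D387A mutation does while cFLIP is present. No member rose or fell, and 0% of the 18360 tested genes rose. B2m measured 616, 809 and 651 RPKM in Casp8 1xDA/1xDA embryos against 552, 604 and 556 RPKM in controls, ranges that did not overlap, with a log2 difference of 0.28 ± 0.27 (SE, adjusted p = 0.975). The median log2 difference of the members was 0.26 against 0.02 over all genes. At an unadjusted p under 0.05 edgeR gave 921 genes and 0 members, and limma-voom and DESeq2 each called 0 members. Same-numbered embryos of these 2 genotypes deviated together, and with the replicate number as a block 0 members were called, B2m at 0.28 (adjusted p = 0.987). In a blocked fit of only these 2 genotypes, chosen after seeing the data, 0 members were called, with adjusted p of 0.201 for B2m and 0.0974 for H2-D1.

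Cflar-deficient D387A intestines had more RNA of the light chain and of 7 heavy chains than Mlkl-/- controls, from which they differed in both Casp8 and Cflar. Of the 10 members 8 rose and none fell in Cflar-deficient D387A embryos against Mlkl-/- embryos, where 9.4% of all tested genes rose and 12.8% fell. The members' median log2 difference was 1.56 against -0.01 over all genes. B2m measured 1279, 1159 and 1398 RPKM in the Cflar-deficient embryos, all above the 552 to 604 RPKM of the controls, a 2.24-fold rise (log2 1.16 ± 0.27, SE, adjusted p = 0.0014). In rank by mean RPKM, B2m moved from 63 to 13 among all genes.

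Among the classical heavy chains the differences were smaller. H2-K1 measured 450, 416 and 437 RPKM against 322, 355 and 305 in controls, ranges that did not overlap, but its log2 difference of 0.41 ± 0.26 did not pass the test (adjusted p = 0.193). That standard error rests on the spread of all genotypes of the set. Over 14 alternative settings the log2 difference of H2-K1 ran from 0.36 to 0.48 and its adjusted p from 0.00138 to 0.342, with 0 calls. H2-D1 measured 320, 288 and 326 RPKM against 164, 168 and 150, and its log2 difference of 0.96 ± 0.30 (adjusted p = 0.0107) stayed under the fold threshold. Both genes were thus higher in every Cflar-deficient embryo than in any control. Such separation was not counted over all genes, and 11609 of the 18360 tested genes had an unadjusted p under 0.05 in edgeR here.

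The Q region genes showed the largest rises after H2-M2. H2-Q6 measured 22.5, 21.98 and 21.7 RPKM in Cflar-deficient embryos against 0.387, 0.831 and 0.863 RPKM in controls, a log2 rise of 4.99 ± 0.78 (adjusted p = 2.97e-05). H2-Q7 measured 24.1, 23.9 and 24.5 RPKM against 0.722, 0.684 and 0.619 RPKM, a log2 rise of 5.15 ± 0.74 (adjusted p = 1.22e-05). Both genes were nearly silent in controls and similar to each other in every Cflar-deficient embryo. H2-Q4, which started higher, measured 36.1 to 46.4 RPKM against 12.03 to 14.09 RPKM, a 3.18-fold rise (adjusted p = 0.000192).

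The T and M region genes rose as well. H2-T22 measured 32.3, 25.1 and 30.6 RPKM against 9.02, 10.04 and 8.98 RPKM, a 3.14-fold rise (adjusted p = 0.000691). H2-T23 measured 56.1, 40.3 and 63.3 RPKM against 20.2, 27.3 and 20.5 RPKM, a 2.35-fold rise (adjusted p = 0.0181), and this call was lost without the first or the third control (adjusted p = 0.0573 and 0.0574) and without the third Cflar-deficient embryo (adjusted p = 0.0584). H2-M3 measured 6.19, 5.28 and 6.87 RPKM against 2.14, 2.23 and 2.30 RPKM, a 2.75-fold rise (adjusted p = 8.7e-05). H2-M2 measured 13.98, 7.18 and 10.1 RPKM, from 502, 249 and 391 reads against the 5 reads of the 3 controls together, a ratio of read rates of 191 with a 95% exact counting interval of 81.4 to 588. Intervals of this kind cover counting error only, and the log2 rise fitted to the same gene was 7.48 ± 0.77 (adjusted p = 2.54e-07).

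**Figure D2:**
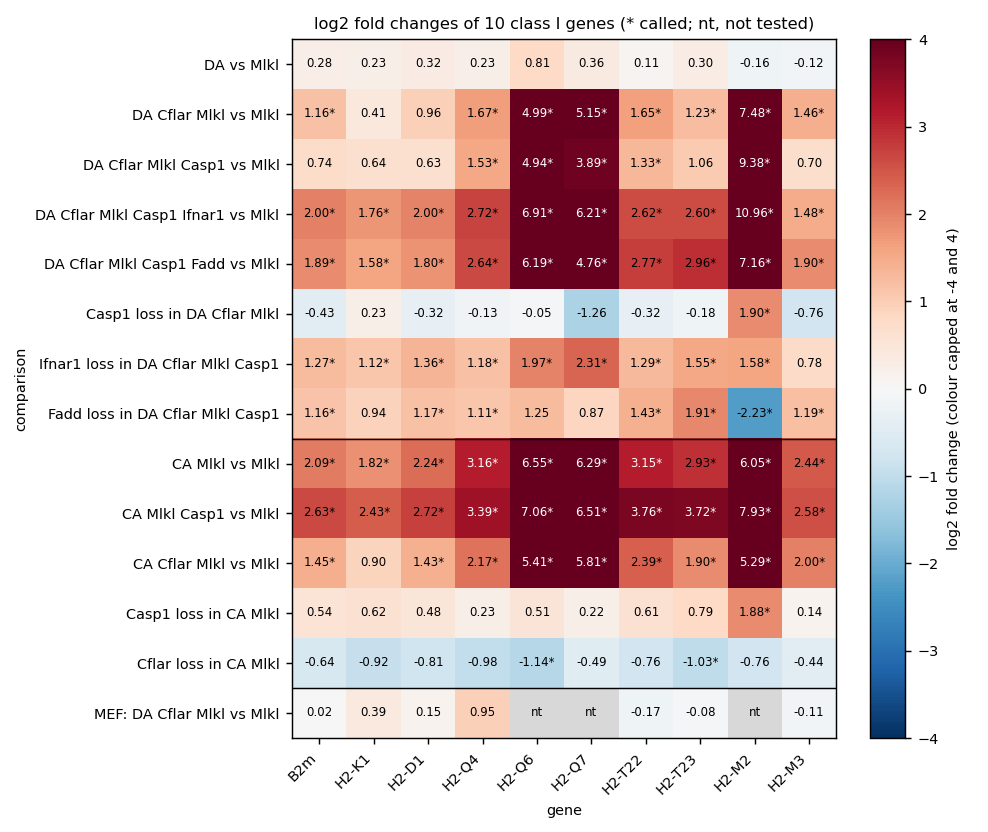
Heat map of the log2 fold change of each member (columns) in each comparison (rows), with the value printed in each cell, a star where the gene was called and nt where it was not tested; colour is capped at -4 and 4. In Cflar-deficient against Mlkl-/- embryos of the D387A set, H2-Q6, H2-Q7 and H2-M2 stand out at 4.99, 5.15 and 7.48.

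Markers of blood cells were higher in the same embryos. Leukocyte markers summed to 227 to 313 RPKM in the Cflar-deficient D387A embryos against 139 to 152 RPKM in controls, with 4 of 8 rising, and neutrophil markers summed to 60.3 to 229 RPKM against 4.07 to 28.1 RPKM, with 3 of 4 tested markers rising, 1 falling and Elane at 0 in all 3 Cflar-deficient embryos. Macrophage markers summed to 183 to 234 RPKM against 144 to 162 RPKM, with 1 of 5 rising and 1 falling. Markers of other cell types moved too. Smooth muscle markers summed to 1995 to 2580 RPKM against 1392 to 1471 RPKM and fibroblast markers to 694 to 722 RPKM against 507 to 553 RPKM, with 0 called. Epithelial markers summed to 3634 to 4061 RPKM against 3858 to 4442 RPKM, with 2 of 9 rising and 0 falling. The part of all these markers in the class I result was not tested.

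Adding loss of Casp1, the inflammatory caspase that drives pyroptosis, asked how far the class I RNA of Cflar-deficient D387A embryos depends on it, and 1 embryo decided the answer. B2m measured 548, 655 and 1649 RPKM in the 3 Casp1-deficient D387A embryos, H2-K1 measured 304, 353 and 875 RPKM, and H2-D1 measured 133, 159 and 454 RPKM. For these 3 genes the first and the second embryo lay at or near the Mlkl-/- level, and the third lay above all 3 Cflar-deficient embryos with Casp1. Nlrc5, the transactivator of class I genes, showed the same order, with 5.23, 7.87 and 36.2 CPM. Neutrophil markers summed to 10.5 to 26.5 RPKM in this group and leukocyte markers to 159 to 208 RPKM.

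With all 3 Casp1-deficient embryos, only H2-M2 among the 10 members rose on Casp1 loss and none fell, where 8.88% of all tested genes rose. B2m differed by a log2 value of -0.43 ± 0.27 (adjusted p = 0.208) and H2-Q7 by -1.26 ± 0.54 (adjusted p = 0.0649), while H2-M3 differed by -0.76 ± 0.24 (adjusted p = 0.016), short of the fold threshold. Without the third embryo 7 members fell, where 6.36% of all tested genes fell. That embryo was left out after its class I levels were seen, so the adjusted p-values that follow are descriptive. B2m then fell 2.13-fold (log2 -1.09, adjusted p = 2.36e-06) and H2-D1 2.13-fold (log2 -1.09, adjusted p = 1.16e-06). H2-Q7 fell 8.16-fold (log2 -3.03, adjusted p = 1.86e-07) and H2-Q6 3.40-fold (log2 -1.77, adjusted p = 7.04e-05). H2-T22, H2-T23 and H2-M3 fell 2.31-, 2.53- and 2.11-fold, and H2-K1 and H2-Q4, at log2 -0.40 and -0.91, stayed under the fold threshold. Some markers of blood cells fell as well, 3 of 4 neutrophil markers with or without the third embryo and 1 of 8 leukocyte markers with it or 2 of 8 without it. Of T and NK cell markers 2 of 2 tested fell in both fits, whereas of 5 macrophage markers 1 rose and 0 fell in both. The part of these markers in the result was not tested.

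H2-M2 was the member that rose on Casp1 loss with or without the third embryo. It measured 21.2, 23.8 and 72.0 RPKM in the Casp1-deficient embryos against 13.98, 7.18 and 10.1 RPKM in the Cflar-deficient embryos with Casp1, so every Casp1-deficient embryo was above every embryo with Casp1. The log2 rise was 1.90 ± 0.35 (adjusted p = 0.000258) and remained 1.11 (adjusted p = 7.88e-05) without the third embryo. H2-M2 thereby made up 4.07% ± 0.17 (SD, n = 3) of all heavy chain RNA, counted as RPKM summed over the 9 heavy chain members, against 1.11% ± 0.31 with Casp1 present.

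**Figure D3:**
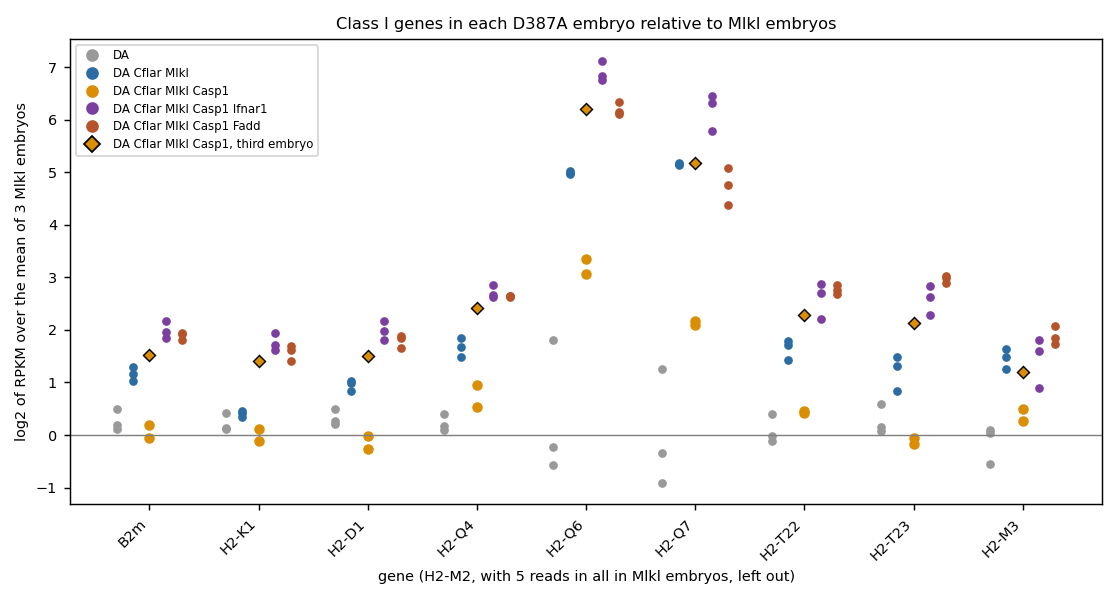
Log2 of the RPKM of 9 members in each D387A embryo over the mean of the 3 Mlkl-/- embryos, 1 point per embryo, coloured by genotype, with H2-M2 left out for its 5 control reads. The third Casp1-deficient embryo, drawn as a diamond, lies above the other 2 of its group for each gene shown, as for B2m at 1649 RPKM against 548 and 655.

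Against Mlkl-/- embryos, 5 members rose in the Casp1-deficient D387A embryos, where 2.16% of all tested genes rose. They were H2-Q4, H2-Q6, H2-Q7, H2-T22 and H2-M2, with log2 rises of 1.53, 4.94, 3.89, 1.33 and 9.38. The call of H2-T22 was lost in limma-voom (adjusted p = 0.0546), without the first control (adjusted p = 0.0524) and in a fit of only these 2 genotypes (adjusted p = 0.11), which also lost that of H2-Q4 (adjusted p = 0.0653). Without the third embryo 3 members rose, where 1.32% of all genes did. These were H2-Q6 at 3.22 (adjusted p = 3.18e-05), H2-Q7 at 2.13 (adjusted p = 0.0015) and H2-M2 at 8.59 (adjusted p = 1.28e-10), while B2m, H2-K1 and H2-D1 differed from controls by log2 values of 0.08, 0.01 and -0.14. H2-Q6, at 5.84 to 51.2 RPKM, and H2-Q7, at 2.90 to 24.4 RPKM, were above every control in all 3 Casp1-deficient embryos.

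Removing the type I interferon receptor gene Ifnar1 in addition asked whether type I interferon signaling sustains the remaining class I RNA. The levels were not lower but among the highest of the D387A set. B2m measured 2065, 2218 and 2579 RPKM in the Ifnar1-deficient D387A embryos, H2-K1 measured 1008, 1066 and 1251 RPKM, and H2-D1 measured 565, 637 and 720 RPKM. All 10 members rose against Mlkl-/- embryos, where 6.76% of all tested genes rose, with a median log2 rise of 2.61 against -0.0029 over all genes. Apart from H2-M2 the log2 rises ran from 1.48 ± 0.25 for H2-M3 (adjusted p = 0.000146) and 1.76 ± 0.27 for H2-K1 (adjusted p = 5.21e-05) to 6.91 ± 0.79 for H2-Q6 (adjusted p = 3.52e-06). H2-M2 measured 123, 108 and 117 RPKM and gave a ratio of read rates of 2122 to controls with a 95% exact counting interval of 909 to 6536, which brought it from rank 22256 to rank 608 among all genes.

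Relative to the Casp1-deficient embryos with intact Ifnar1, 9 members rose in the Ifnar1-deficient embryos, where 3.28% of all tested genes rose. B2m rose 2.41-fold (adjusted p = 0.0031), H2-D1 2.58-fold (adjusted p = 0.00345) and H2-M2 2.98-fold (adjusted p = 0.00262), and H2-M3 differed by a log2 value of 0.78 ± 0.24 (adjusted p = 0.022). This count leaned on the Casp1-deficient group. Without the third of those embryos all 10 members rose, where 6.06% of all genes did, with B2m at a log2 rise of 1.93 (adjusted p = 1.35e-08), and without the first or the second embryo 4 members were called in each case, where 3.37% and 3.11% of all genes were. A fit of only these 2 genotypes called 0 members, where 2.36% of all genes were called, with nearly the same fold changes (B2m at a log2 value of 1.27, adjusted p = 0.0751, and H2-D1 at 1.37, adjusted p = 0.0799). Neutrophil markers summed to 24.6 to 44.2 RPKM in the Ifnar1-deficient embryos against 4.07 to 28.1 RPKM in Mlkl-/- embryos, with 2 of 4 rising and 1 falling. Leukocyte markers summed to 178 to 212 RPKM against 139 to 152 RPKM, with 1 of 8 rising, and their part in the result was not tested.

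Loss of Fadd, the adaptor that links death receptors to caspase-8, was examined in the Casp1-deficient D387A embryos. B2m measured 2162, 2182 and 2011 RPKM, H2-K1 measured 1059, 1005 and 869 RPKM, and H2-D1 measured 591, 579 and 506 RPKM in the Fadd-deficient embryos. All 10 members rose against Mlkl-/- embryos, where 2.81% of all tested genes rose, with a median log2 rise of 2.71 against -0.02 over all genes. H2-T23 measured 184, 179 and 168 RPKM, a 7.80-fold rise over controls (adjusted p = 0.00018), and H2-M3 measured 8.03, 9.42 and 7.42 RPKM, a 3.73-fold rise (adjusted p = 6.01e-05). Leukocyte markers summed to 137 to 159 RPKM and neutrophil markers to 6.13 to 28.2 RPKM in these embryos, against 139 to 152 and 4.07 to 28.1 RPKM in controls, and 0 of 8 and 0 of 4 of the tested markers rose.

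H2-M2 was the 1 member that fell on Fadd loss. Against the Casp1-deficient embryos with Fadd, 6 members rose, where 2.56% of all tested genes rose, and H2-M2 fell, where 0.877% of all genes fell. B2m rose 2.23-fold (adjusted p = 0.00771), H2-T22 2.70-fold (adjusted p = 0.00789) and H2-T23 3.76-fold (adjusted p = 0.00482), and H2-Q6 and H2-Q7 differed by log2 values of 1.25 and 0.87 that did not pass the test in edgeR. In limma-voom H2-Q6, H2-Q7 and H2-K1 were called as well, at log2 rises of 1.996, 1.61 and 1.10 (adjusted p = 0.00776, 0.0269 and 0.00659). H2-M2 measured 8.82, 7.71 and 8.44 RPKM against 21.2, 23.8 and 72.0 RPKM, a log2 fall of -2.23 ± 0.36 (adjusted p = 0.000443). Without the third Casp1-deficient embryo 9 members rose, where 3.96% of all genes did, and H2-M2 fell by 1.44 on the log2 scale (adjusted p = 2.17e-05). Without the first or the second embryo of that group 4 members were called in each case, where 2.55% and 3.07% of all genes were. A fit of only these 2 genotypes called 2 members, where 1.85% of all genes were called, with nearly the same fold changes (B2m at a log2 value of 1.16, adjusted p = 0.111, and H2-T23 at 1.91, adjusted p = 0.091). The comparisons of the D387A set share the Mlkl-/- or the Casp1-deficient embryos, so they are not independent of each other.

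In the C362A set, class I RNA was already higher than in controls while Cflar was intact. B2m measured 2084, 1947 and 2097 RPKM in Casp8 C362A/C362A Mlkl-/- embryos against 354, 526 and 564 RPKM in Mlkl-/- embryos, a 4.24-fold rise (log2 2.09 ± 0.21, adjusted p = 1.92e-06). H2-K1 measured 1098, 1035 and 1168 RPKM against 273, 327 and 338 RPKM, a 3.52-fold rise (adjusted p = 1.79e-06). H2-D1 measured 716, 690 and 755 RPKM against 126, 165 and 167 RPKM, a 4.72-fold rise (adjusted p = 2.15e-07). All 10 members rose and none fell, where 10.4% of all tested genes rose and 7.55% fell, and the members' median log2 rise was 3.04 against 0.02 over all genes.

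The Qa-2 genes had the largest fitted log2 rises of the members in this comparison. H2-Q6 measured 91.5, 97.6 and 102 RPKM against 0.882, 0.644 and 1.63 RPKM, a log2 rise of 6.55 ± 0.28 (adjusted p = 7.48e-10), and H2-Q7 rose by a log2 value of 6.29 ± 0.28 (adjusted p = 8.23e-10). H2-Q4, H2-T22, H2-T23 and H2-M3 rose 8.91-, 8.89-, 7.61- and 5.42-fold. H2-M2 measured 5.60, 8.93 and 8.81 RPKM, a ratio of read rates of 68.3 to controls with a 95% exact counting interval of 40.5 to 125. Neutrophil markers summed to 532 to 662 RPKM in these embryos against 13.3 to 41.9 RPKM in controls and leukocyte markers to 459 to 483 RPKM against 137 to 148 RPKM, with 7 of 8 leukocyte markers rising. Of tested markers 3 of 4 for neutrophils, 3 of 3 for T and NK cells and 2 of 5 for macrophages rose and 0 fell. The part of these markers in the result was not tested.

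Removing Casp1 from the C362A embryos left the class I RNA high. B2m measured 3273, 3079 and 2570 RPKM in C362A embryos that lacked Casp1, H2-K1 measured 1737, 1835 and 1492 RPKM and H2-D1 measured 1055, 1087 and 879 RPKM, the highest means of these genes in any group. All 10 members rose against Mlkl-/- embryos, where 6.79% of all tested genes rose, with a median log2 rise of 3.56 against -0.0014 over all genes. Compared with Casp8 C362A/C362A Mlkl-/- embryos, only H2-M2 among the members passed the call thresholds, where 5.6% of all tested genes rose. H2-M2 measured 37.7, 29.4 and 18.8 RPKM, a log2 rise of 1.88 ± 0.44 over embryos with Casp1 (adjusted p = 0.00451). H2-K1, H2-D1, H2-T22 and H2-T23 were higher by log2 values of 0.62, 0.48, 0.61 and 0.79 with adjusted p-values of 0.0154, 0.0459, 0.00358 and 0.00196, short of the fold threshold. Neutrophil markers summed to 21.8 to 30.6 RPKM and leukocyte markers to 189 to 211 RPKM in the embryos without Casp1, against 532 to 662 and 459 to 483 RPKM with it, and their part in the result was not tested.

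Loss of Cflar in C362A embryos went with lower class I RNA than in C362A embryos with Cflar, though still above controls. B2m measured 1348, 1087 and 1508 RPKM in C362A embryos that lacked Cflar, H2-K1 measured 557, 503 and 689 RPKM and H2-D1 measured 405, 357 and 473 RPKM. Against Mlkl-/- embryos 9 members rose and none fell, where 13.4% of all tested genes rose and 11.2% fell, and H2-K1 was higher by a log2 value of 0.90 ± 0.18 (adjusted p = 0.000673), under the fold threshold. Leukocyte markers summed to 325 to 433 RPKM in these embryos against 137 to 148 RPKM in controls, with 7 of 8 rising, and neutrophil markers to 271 to 464 RPKM against 13.3 to 41.9 RPKM, with 3 of 4 tested markers rising, and their part in the result was not tested. Against Casp8 C362A/C362A Mlkl-/- embryos, H2-Q6 and H2-T23 fell, where 4.62% of all tested genes fell, by 1.14 and 1.03 on the log2 scale (adjusted p = 0.00202 and 0.000795). Another 5 members, B2m, H2-K1, H2-D1, H2-Q4 and H2-T22, were lower by log2 values of -0.64 to -0.98 with adjusted p under 0.05 but short of the fold threshold. The median over the members was -0.78 against -0.02 over all genes. H2-M2 measured 2.19, 2.34 and 9.22 RPKM, so the third embryo was above the range of the C362A embryos with Cflar and the other 2 were below it. Leaving out the second Cflar-deficient C362A embryo left 1 member called, and leaving out the third left 5, with H2-M2 then lower by a log2 value of -1.78 (adjusted p = 0.000562).

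The effect of the Cflar-deficient genotype against Mlkl-/- controls was compared between the D387A and the C362A sets in a fit over both. No member passed the test of the difference, where 0.127% of all tested genes had an adjusted p under 0.05, and B2m gave a log2 difference of -0.28 ± 0.35 (adjusted p = 0.686). That difference does not show that the effects were alike, since the standard errors of H2-Q6, H2-Q7 and H2-M2 reached 0.93, 0.97 and 1.92. The effect of Casp1 loss differed between the sets for 1 member, H2-M3, by -0.87 ± 0.30 (adjusted p = 0.047), where 16.9% of all genes differed, and the D387A embryos of this comparison also lacked Cflar. Without the third Casp1-deficient D387A embryo 9 of the 10 members differed, where 21.9% of all genes did, with B2m at -1.60 ± 0.24 (adjusted p = 6.35e-05) and H2-Q7 at -3.22 ± 0.39 (adjusted p = 3.99e-06), while H2-M2, at -0.74 ± 0.50, did not pass the test (adjusted p = 0.299).

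MEFs of the same D387A genotype showed no call in the family. B2m measured 365, 413 and 382 RPKM in Cflar-deficient D387A MEFs against 348, 380 and 414 RPKM in Mlkl-/- MEFs, a log2 difference of 0.02 ± 0.08 (adjusted p = 0.972). H2-K1 measured 19.7, 32.2 and 28.0 RPKM against 16.3, 22.6 and 22.2 RPKM, and H2-D1 measured 18.9, 27.0 and 24.9 RPKM against 17.2, 22.7 and 24.2 RPKM. Of the 7 members with enough reads to be tested none rose or fell, where 0.0711% of all 15465 tested genes rose. H2-Q4 measured 3.86 to 6.38 RPKM against 1.95 to 3.19 RPKM, with a log2 difference of 0.95 ± 0.24 (adjusted p = 0.427), and was the 1 member with an unadjusted p under 0.05 in edgeR, while limma-voom and DESeq2 called 0 members. The replicate numbers were taken to pair the cultures because same-numbered ones deviated together in these data. With these numbers as a block, H2-Q4 differed by 0.94 (adjusted p = 0.0451), under the fold threshold, and H2-K1 by 0.37 (adjusted p = 0.0962). H2-Q4, H2-K1 and H2-D1 were higher in the Cflar-deficient culture of all 3 same-numbered pairs. None of these genes was called, and the share of all genes with such an order was not counted. H2-Q6, H2-Q7 and H2-M2 had too few reads to be tested, and H2-M2 had 0 reads of 84530587 in Mlkl-/- MEFs, which allows up to 0.0357 CPM, against 7, 1 and 5 reads in the other MEFs.

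The response of intestines and MEFs to the Cflar-deficient D387A genotype was compared directly in a fit over both. It differed for 3 of the 10 members, where 38.4% of all tested genes had an adjusted p under 0.05. B2m responded more in the intestine by a log2 value of 1.17 ± 0.35 (adjusted p = 0.0112), H2-T22 by 1.85 ± 0.46 (adjusted p = 0.00295) and H2-M3 by 1.59 ± 0.37 (adjusted p = 0.0018). H2-K1 gave a difference of 0.05 ± 0.37 (adjusted p = 0.97). The low MEF counts of H2-Q6, H2-Q7 and H2-M2 left standard errors of 2.60, 2.45 and 13.8 in edgeR, in which none of the 3 passed the test. DESeq2 on the same counts gave differences of 3.78 for H2-Q6 (adjusted p = 0.00508) and 4.43 for H2-Q7 (adjusted p = 0.000774), so for these 2 genes the call depends on the tool. Tissue, culture and embryonic stage changed together and cannot be told apart. The labels name a single library kit for all samples, whereas the study's methods name one for the intestines and another for the MEFs, so the kit cannot be told apart from the tissue either.

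The proportions within the family also shifted, and such ratios within a library do not depend on library scaling. H2-K1 exceeded H2-D1 by a ratio of RPKM of 2.04 ± 0.074 (SD, n = 3) in Mlkl-/- intestines of the D387A set by 1.91 ± 0.041 in Casp8 1xDA/1xDA embryos and by 1.40 ± 0.052 in Cflar-deficient embryos, and the 3 groups did not overlap. The ratio was 2.14 ± 0.19 in Casp1-deficient embryos, including 1.93 in the third, and 1.73 ± 0.055 and 1.75 ± 0.038 in Ifnar1- and Fadd-deficient embryos. In the C362A set it went from 2.06 ± 0.097 in Mlkl-/- embryos to 1.53 ± 0.025 in Casp8 C362A/C362A Mlkl-/- embryos, and it was 1.68 ± 0.027 in those that also lacked Casp1 and 1.41 ± 0.040 in those that also lacked Cflar. In Mlkl-/- and Cflar-deficient MEFs the ratio was 0.954 ± 0.039 and 1.12 ± 0.077. These ratios were not tested.

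Classical heavy chains made up a smaller share of heavy chain RNA in the mutant intestines, except in Casp8 1xDA/1xDA embryos, where they made 91.2% ± 0.61. H2-K1 and H2-D1 together made 90.9% ± 0.58 of the RPKM over the 9 heavy chain members in Mlkl-/- intestines of the D387A set, 80.0% ± 1.3 in Cflar-deficient and 76.5% ± 0.24 in Ifnar1-deficient embryos. In the C362A set they made 89.4% ± 1.1 in Mlkl-/- embryos and 75.1% ± 1.4 in Casp8 C362A/C362A Mlkl-/- embryos. B2m measured 1.07 ± 0.039 times the summed heavy chains in Mlkl-/- intestines of the D387A set, 1.37 ± 0.067 times in Cflar-deficient embryos and 1.00 ± 0.0072 times in Ifnar1-deficient embryos, whereas in Mlkl-/- MEFs it measured 6.53 ± 0.65 times. In the C362A set the same ratio was 0.915 ± 0.10 in Mlkl-/- and 0.997 ± 0.058 in Cflar-deficient embryos, whose ranges overlapped. The 10 members took 0.140% ± 0.0079 of all reads on genes in Mlkl-/- intestines of the D387A set, 0.598% ± 0.056 in Ifnar1-deficient embryos and 0.777% ± 0.088 in Casp8 C362A/C362A Mlkl-/- Casp1-/- embryos, against 0.0432% ± 0.0040 in Mlkl-/- MEFs.

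**Figure D4:**
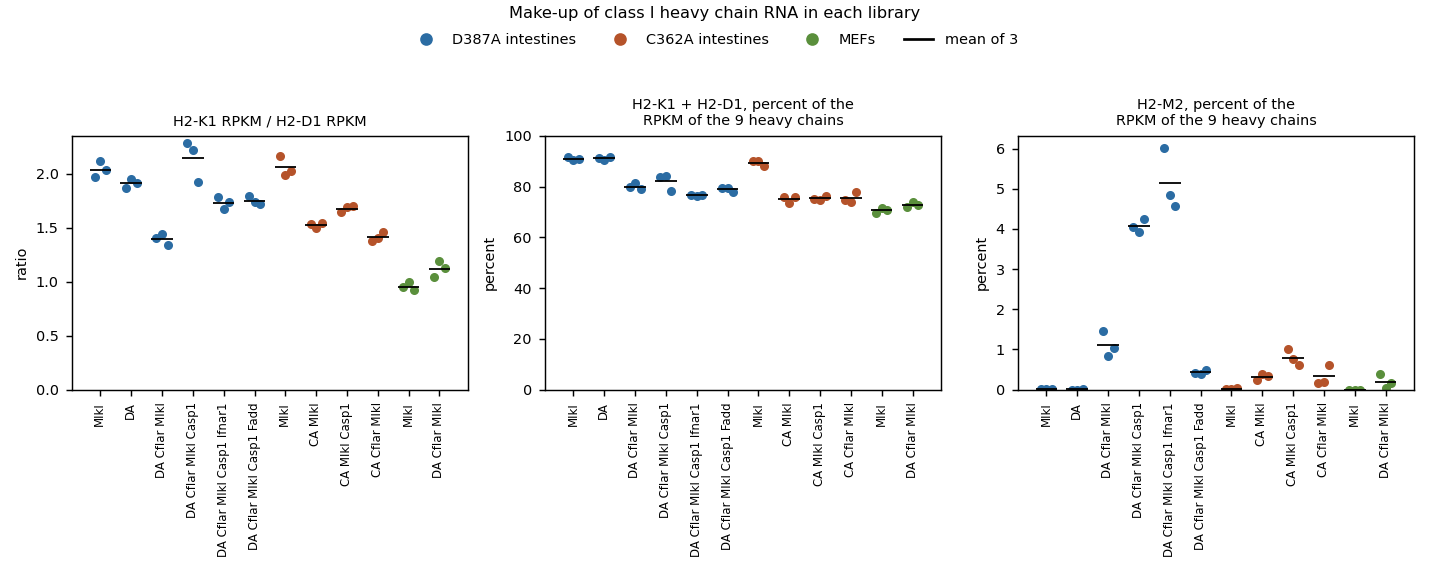
Ratio of H2-K1 to H2-D1 RPKM (left), percent of heavy chain RPKM from H2-K1 and H2-D1 (middle) and percent from H2-M2 (right), 1 point per library and a line at the mean of 3. The H2-K1 to H2-D1 ratio is lower in Cflar-deficient embryos of both sets, at means of 1.40 and 1.41, than in their Mlkl-/- controls, at 2.04 and 2.06, and the H2-M2 share is highest in Casp1- and Ifnar1-deficient D387A embryos, at means of 4.07% and 5.14%.

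Not all class I genes rose with these members. A list of 27 other class I heavy chain and class I-like genes, of which 23 are in the files, had 11 tested in the D387A set, and in Cflar-deficient embryos 6 of these fell and 2 rose, with a median log2 difference of -2.43. The 3 with the largest differences were H2-Q1 at -4.91, Fcgrt, the neonatal Fc receptor that carries maternal antibody across the gut epithelium, at -4.54, and H2-Bl at -3.90. The 2 that rose, H2-T10 at 1.93 and H2-T24 at 1.76, are named after their values were seen, and H2-T10 is the close copy of H2-T22. On Casp1 loss 6 of the 11 rose and none fell, or 6 rose and 1 fell without the third Casp1-deficient embryo. Against Mlkl-/- embryos the Casp1-, Ifnar1- and Fadd-deficient embryos had 2, 2 and 3 that rose and none that fell, although without the third Casp1-deficient embryo that group had 1 that rose and 2 that fell. On Fadd loss 6 rose and none fell, or 8 without the third Casp1-deficient embryo. In the C362A set 12 were tested. Against Mlkl-/- embryos 2 rose and 4 fell in Casp8 C362A/C362A Mlkl-/- embryos, 5 rose and none fell in those that also lacked Casp1, and 2 rose and 6 fell in those that also lacked Cflar. Against Casp8 C362A/C362A Mlkl-/- embryos 7 rose on Casp1 loss and 5 fell on Cflar loss. H2-Q1 and Fcgrt were among those that fell in Cflar-deficient C362A embryos, with log2 values of -3.71 and -3.83.

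**Figure D5:**
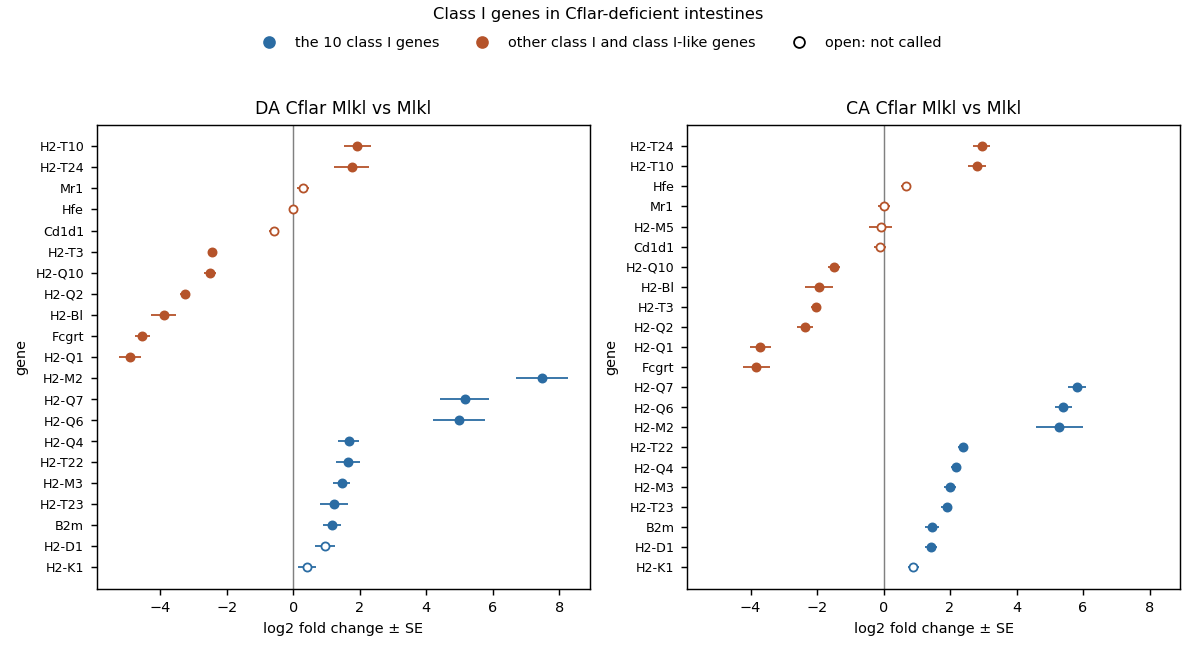
Log2 fold change with 1 standard error of the 10 members (blue) and of the other class I and class I-like genes tested (orange) in Cflar-deficient intestines of the D387A set (left) and the C362A set (right), against Mlkl-/- embryos of the same set; open points were not called. The members lie at 0.41 or above, whereas H2-Q1 and Fcgrt lie at -3.71 or below.

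Some genes that supply and load peptides rose in the same embryos. Of 13 such genes 4 rose in the Cflar-deficient D387A embryos and none fell, led by the transporter subunit Tap1 at 2.51 and the immunoproteasome subunits Psmb8 at 2.22 and Psmb9 at 1.78. In the Casp1-, Ifnar1- and Fadd-deficient D387A embryos 4, 8 and 8 rose against Mlkl-/- embryos, although without the third embryo none rose in the Casp1-deficient group. On Casp1 loss in Cflar-deficient D387A embryos 0 of 13 were called, or 3 fell without the third Casp1-deficient embryo. Relative to Casp1-deficient embryos, 5 rose on Ifnar1 loss, or 8 without that embryo, and 3 rose on Fadd loss, or 9 without it. In the C362A set, against Mlkl-/- embryos, 9 rose in Casp8 C362A/C362A Mlkl-/- embryos, 9 in those that also lacked Casp1 and 6 in those that also lacked Cflar, with Tap1 at 4.13, 4.33 and 3.09. Against Casp8 C362A/C362A Mlkl-/- embryos 0 of 13 were called on Casp1 loss, and on Cflar loss 4 fell and none rose. In MEFs 0 of 13 were called.

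Among regulators of class I transcription, Nlrc5 rose in the Cflar-deficient D387A embryos by 4.10, and values here are log2 differences unless given in CPM. Nlrc5 measured 36.0, 27.5 and 37.9 CPM in these embryos against 1.87, 2.26 and 1.80 CPM in controls. In Ifnar1- and Fadd-deficient embryos Nlrc5 rose by 4.21 and 4.81 and the transcription factor Irf1 by 1.11 and 1.14. Relative to Casp1-deficient embryos with Fadd, Nlrc5 rose by 1.76 on Fadd loss, and by 3.08 without the third Casp1-deficient embryo (adjusted p = 8.66e-08). In Casp1-deficient D387A embryos Nlrc5 rose by 3.05 against Mlkl-/- embryos, and by 1.73 without that embryo (adjusted p = 0.000617). In Casp8 C362A/C362A Mlkl-/- embryos Nlrc5 rose by 6.78 and Irf1 by 1.68, and Nlrc5 measured 150, 192 and 172 CPM. With Casp1 loss these were 6.29 and 1.53 against Mlkl-/- embryos, and with Cflar loss Nlrc5 rose by 5.59. Against C362A embryos with Cflar, Nlrc5 fell on Cflar loss by 1.18 on the log2 scale. In MEFs neither Nlrc5 nor Irf1 was called. Receptors that bind class I molecules, a list of 7 with 3 tested in the D387A set, had 2 that rose in Cflar-deficient embryos, Klrk1 at 1.75 and Pirb at 2.51, both carried by blood cells. In the C362A set 5 were tested. Against Mlkl-/- embryos 4 rose in Casp8 C362A/C362A Mlkl-/- embryos, 1 in those that also lacked Casp1 and 4 in those that also lacked Cflar.

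Over the 30 intestine libraries, log2 CPM relative to the Mlkl-/- mean of the same set (prior count 2) was correlated between genes as a description only, since libraries of 1 genotype share their condition. Among members the closest pair was B2m and H2-D1 (Pearson r = 0.993, n = 30), and H2-M2 followed the others least, with r of 0.651 to 0.874. Outside the family, the 5 genes of 18186 most like B2m were Lgals9 at 0.983, Irf7 at 0.981, Bst2 at 0.977, H2-T10 at 0.977 and Slfn2 at 0.977. The 5 most like H2-K1 were Nmi at 0.985, Rnf135 at 0.985, Tapbpl at 0.977, Misp at 0.977 and 9530082P21Rik at 0.976.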

How the data were processed

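The authors aligned reads with GSNAP to GRCm38/mm10 and kept unique alignments. They deposited counts and RPKM per gene and library, with a gene width in bases in the deposited files. The counting program, its annotation and its use of strand are not given in the sources used here. Counts were used here, and RPKM was recomputed from counts and deposited widths on TMM-scaled library sizes. Each set (D387A intestines, C362A intestines, MEFs) was fitted separately with edgeR 4.0.16 (quasi-likelihood test in R 4.3.3, genes kept by filterByExpr, at least 10 reads per library in a group-sized set and 15 in all). Adjusted p-values are Benjamini-Hochberg values over all genes tested, and a call needs an adjusted p under 0.05 and a log2 fold change above 1 or below -1. Effects in 2 sets were compared by an interaction term in a joint fit, called at an adjusted p under 0.05. With 3 libraries per group, p-values measure the spread between embryos or cultures, estimated over all genotypes of a set together. A p-value or standard error therefore also reflects libraries outside its comparison, such as the third Casp1-deficient D387A embryo. Gene locations came from GENCODE, in which 52403 of the 52636 genes were found, and promoters from RefSeq (GRCm38.p6). The scripts were tested on simulated counts. Same-numbered libraries deviated together in all 3 pairs of the MEFs (r of 0.181 to 0.310) and of the Casp8 1xDA/1xDA and Mlkl-/- embryos (r of 0.111 to 0.220), so replicate numbers were taken to pair these. The members and the gene lists were chosen with earlier results of these data known. All 10 members are described in every comparison, together with called regulators of class I transcription (1 of which is not reported here), the 3 largest called differences of other lists, and the 5 genes most like B2m and H2-K1. The tests were repeated with voom of limma 3.58.1, with DESeq2 1.42.0, with other size factors, filters and prior counts, a replicate block, fits of 2 genotypes only, and leaving out each library.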

Additional observations from a re-analysis of the deposited data

Results flagged for a closer look

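The effect of the Cflar-deficient D387A genotype against Mlkl-/- controls differed between intestine and MEFs for 3 members by a test of the difference itself (edgeR interaction term, Benjamini-Hochberg adjusted). B2m differed by a log2 value of 1.17 (adjusted p = 0.0112), H2-T22 by 1.85 (adjusted p = 0.00295) and H2-M3 by 1.59 (adjusted p = 0.0018), each larger in the intestine. Over all tested genes 38.4% differed, a larger share than 3 of the 10 members. The effect of Casp1 loss differed between the D387A set, whose embryos also lacked Cflar, and the C362A set for H2-M3, by a log2 value of -0.87 (adjusted p = 0.047). Over all genes 16.9% differed in this fit, and without the third Casp1-deficient D387A embryo 9 members differed, where 21.9% of all genes did.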

How the results depend on the processing

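Over 2039 values of single members under the alternatives, 1954 kept their direction and side of the call thresholds, 41 lost the call, 44 gained it and 0 called values changed sign, while 25 values that did not pass the test changed sign. DESeq2 gave no adjusted p for H2-Q6 in 10 cases, and these have no value. Other size factors, a prior count of 2 and a mean of at least 50 reads changed no call of a member. On Casp1 loss in Cflar-deficient D387A embryos, 1 member was called, and 2 by limma-voom, with no filter on low counts and with the replicate block, H2-Q7 being the added gene. On Fadd loss limma-voom added H2-K1, H2-Q6 and H2-Q7, and the fit with no filter on low counts added H2-Q6 (adjusted p = 0.0213). With only the 2 genotypes compared in the fit, 3 members in place of 5 were called in Casp1-deficient D387A against Mlkl-/- embryos, 0 in place of 9 on Ifnar1 loss, 2 in place of 7 on Fadd loss and 1 in place of 2 on Cflar loss in C362A embryos; that fit uses fewer samples. The difference in effect between intestine and MEFs had 3 members past the threshold and 5 by DESeq2, which adds H2-Q6 and H2-Q7. That between Casp1 loss in the D387A and C362A sets had 1, and 4 by limma-voom, 2 by DESeq2 and 2 with the replicate block, and, chosen after seeing the data, 9 without the third Casp1-deficient D387A embryo. Same-numbered intestines had deviations correlated above 0.1 in 9 of 45 pairs in the D387A set and 4 of 18 in the C362A set. In the intestines all 3 pairs of a comparison passed this level only for Casp8 1xDA/1xDA against Mlkl-/- embryos, so elsewhere the libraries share only a number. The paired fit with the replicate block moved no other count of members called by over 1.5 times.

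Leaving out 1 library at a time gave 7 to 9 members called in Cflar-deficient D387A embryos and 3 to 7 in Casp1-deficient D387A embryos, the 3 without the third of these. On Casp1 loss the count ran from 1 to 8, the 8 without that embryo. On Ifnar1 loss it ran from 4 to 10 and on Fadd loss from 4 to 10, with 4 without the first or the second Casp1-deficient embryo. On Cflar loss in C362A embryos it ran from 1 to 5, with 1 without the second and 5 without the third Cflar-deficient embryo. The cause of these changes was not tested. Of 120 group means, 59 taken from the deposited RPKM and 91 from unscaled sums of gene counts lay within 1 SD of the means given. With 0 to 7 reads of H2-M2 in a control or MEF library, its fold changes are limited by counting.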
